A study of Mus musculus with 58 samples.

Results

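The genes of the transforming growth factor beta (TGF-beta) and bone morphogenetic protein (BMP) pathways were followed in RNA of adipose stem cells (ASC), the fibroblast-like precursors of adipocytes. The list held 50 genes, namely 14 TGF-beta, BMP and GDF ligands, 3 inhibin and activin subunits, the protease Bmp1, 4 latent TGF-beta binding proteins, 6 antagonists, 11 receptors, 8 SMADs and 3 Id genes as targets. Members were taken by the mouse Ensembl identifier of their symbol, and all 50 were found among 56953 genes of the count table. Tests took genes that had 5 or more reads in over 3 libraries, which 40 of the 50 did, among 12465 genes tested in all.

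Cells were sorted from inguinal white adipose tissue (iWAT) of C57BL6/J mice as CD45-/CD31-/CD34+, and split into DPP4-negative cells (ASC1) and DPP4-positive cells (ASC2). Gonads were removed at 4 weeks in castrated males and ovariectomized females, and these mice and age-matched controls of both sexes were terminated at 10 weeks after 4 h of fasting. The 58 bulk Smart-seq3 libraries numbered, for ASC1 and ASC2 in turn, 7 and 8 in control males, 8 and 8 after castration, 8 and 8 in control females, and 3 and 8 after ovariectomy. Smart-seq3 reads cDNA over its whole length, and some of its reads carry a unique molecular identifier. Nothing in the labels ties a library to 1 mouse, so p-values measure the spread between libraries.

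TGF-beta family ligands are secreted dimers that bring together type II and type I serine/threonine kinase receptors. TGF-beta and activin receptors phosphorylate SMAD2 and SMAD3, BMP receptors phosphorylate SMAD1, SMAD5 and SMAD9, and both kinds of SMAD act in the nucleus with SMAD4. TGF-beta is stored in the extracellular matrix in a latent form held by latent TGF-beta binding proteins, BMPs are held in check by secreted antagonists such as gremlin and noggin, and the Id genes are direct targets of BMP signaling. In adipose tissue, BMPs are known as drivers of adipocyte commitment and TGF-beta and activin A as inhibitors of adipogenesis.

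Total counts ranged from 106564 to 1421522 per library (median 682406.5). Xist, transcribed from the inactive X chromosome, and 4 Y-chromosome genes went against the sex label in 27 of 58 libraries: 8 of 8 castrated male ASC1, 5 of 8 and 6 of 8 control female ASC1 and ASC2, and 4 of 7 and 4 of 8 control male ASC1 and ASC2 libraries. Some carried both kinds of transcript, such as control female ASC2 library E with 74.5 counts per 1000000 (CPM) of Xist and 31.2 CPM of the Y genes. Groups are therefore named by their labels only, and counts are also given without these libraries, except where castrated male ASC1 would have none left. The 3 libraries of ovariectomized female ASC1 stood apart from the other 55: the summed level of 4 fibroblast markers (Pdgfra, Col1a1, Dcn and Lum) was 33877 to 38623 CPM in them, against 3070 to 11955 CPM elsewhere, with 9122 to 11634 genes detected. Whether the differences in these 3 libraries belong to ovariectomy, to the cells caught or to library preparation cannot be told apart. Dpp4 followed the sort, with group medians of 7.37 to 35.2 CPM in ASC1 and 86.9 to 233 CPM in ASC2, and Pdgfra was read in every library. In bulk samples, a smaller number of cells of a type and less RNA per cell cannot be told apart either.

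Which members the cells expressed was asked first. Per kilobase of the longest transcript, the highest median level over the 58 libraries was that of Fstl1 (follistatin-like 1, a secreted glycoprotein) at 381 CPM per kilobase, followed by Id3 at 267 and Bmp1 at 77.8 CPM per kilobase. Inhba, which encodes the beta A subunit of activin A, was at 32.0 CPM per kilobase, above every other ligand gene of the list. Of the TGF-beta isoforms, Tgfb3 reached 18.9 CPM per kilobase and Tgfb2 0.862, whereas Tgfb1 had no read in 41 of 58 libraries and 25 reads in all. Among type II and type I receptors, Acvrl1 (ALK1) and Tgfbr2 were highest per length, at 25.5 and 22.4 CPM per kilobase, and Tgfbr1 was at 6.78. Smad3 was the highest SMAD at 14.6 CPM per kilobase, and the other SMADs tested lay between 2.00 (Smad7) and 5.23 (Smad4). Ranges of neighbours in this order overlapped, and reads with identifiers come from the 5' end of transcripts, so the scale per length is approximate.

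**Figure D1:**
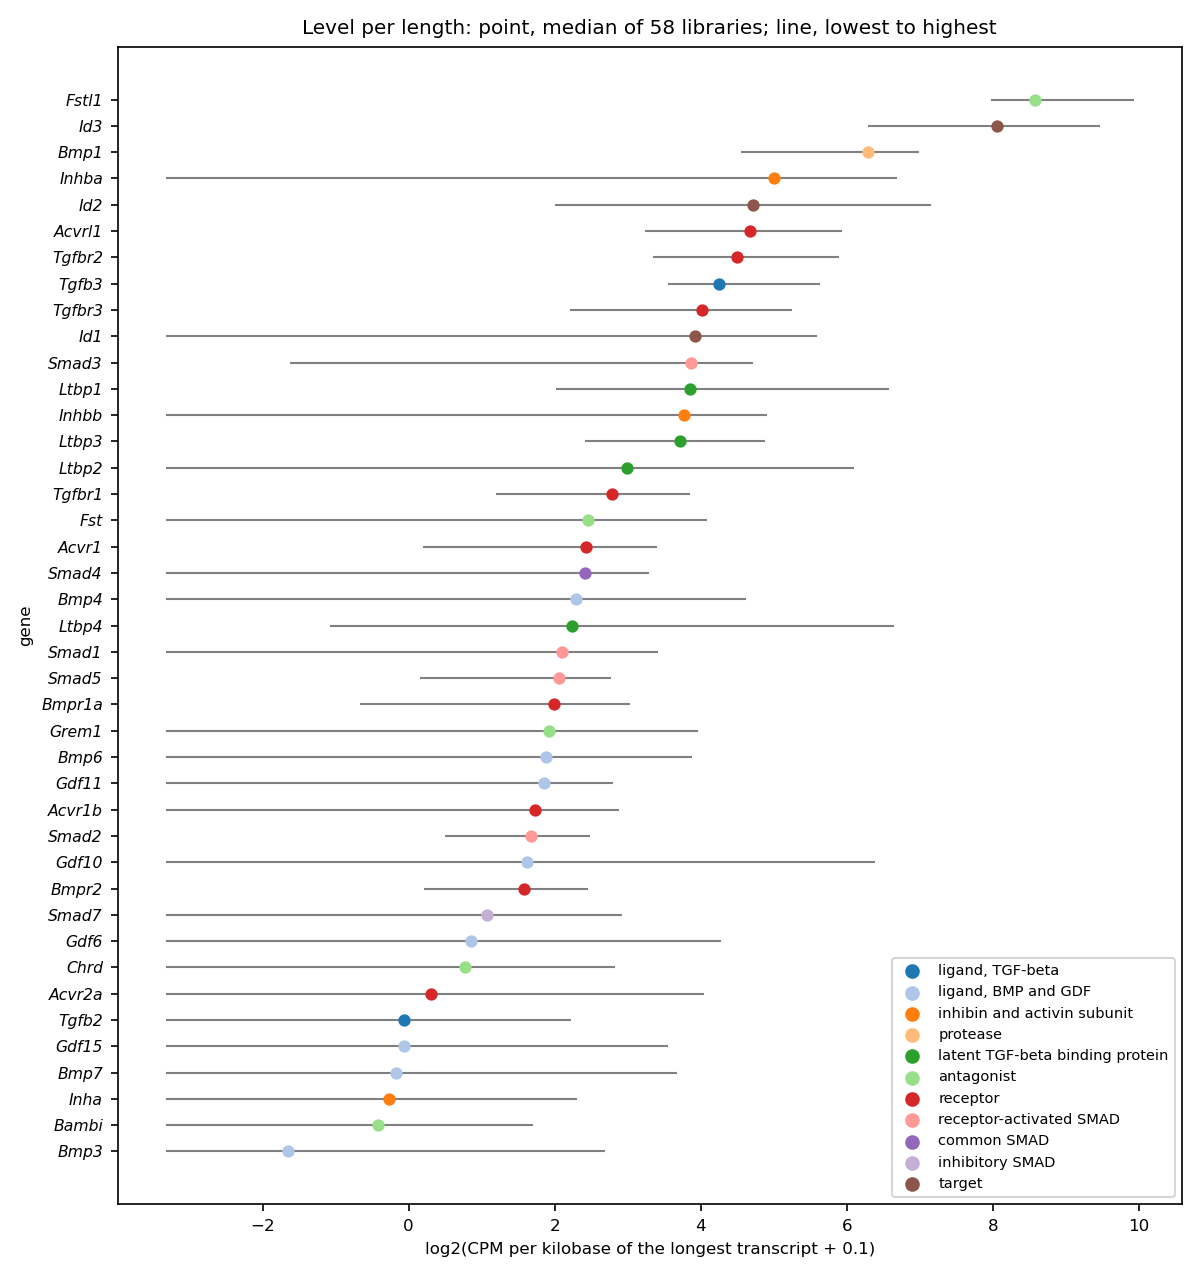
Level per length of the 41 genes with a median above 0, on a log2 axis of CPM per kilobase of the longest transcript with 0.1 added, for all 58 libraries. Points are medians coloured by role and lines run from the lowest to the highest library; Fstl1, Id3 and Bmp1 lead, and the lines of Inhba, Inhbb, Ltbp2 and Grem1 reach down to 0.

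The 10 members with too few reads to test were Tgfb1, Bmp2, Bmp5, Gdf5, Inha, Acvr2b, Bmpr1b, Smad6, Smad9 and Nog. Gdf5 had 1 read and Nog, the gene of the BMP antagonist noggin, 5 reads in all 58 libraries. Bmp2 had 48 reads in 23 libraries, with a highest level of 14.2 CPM in 1 library labelled control female ASC2. At this depth a difference in any of them was not detectable.

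**Figure D2:**
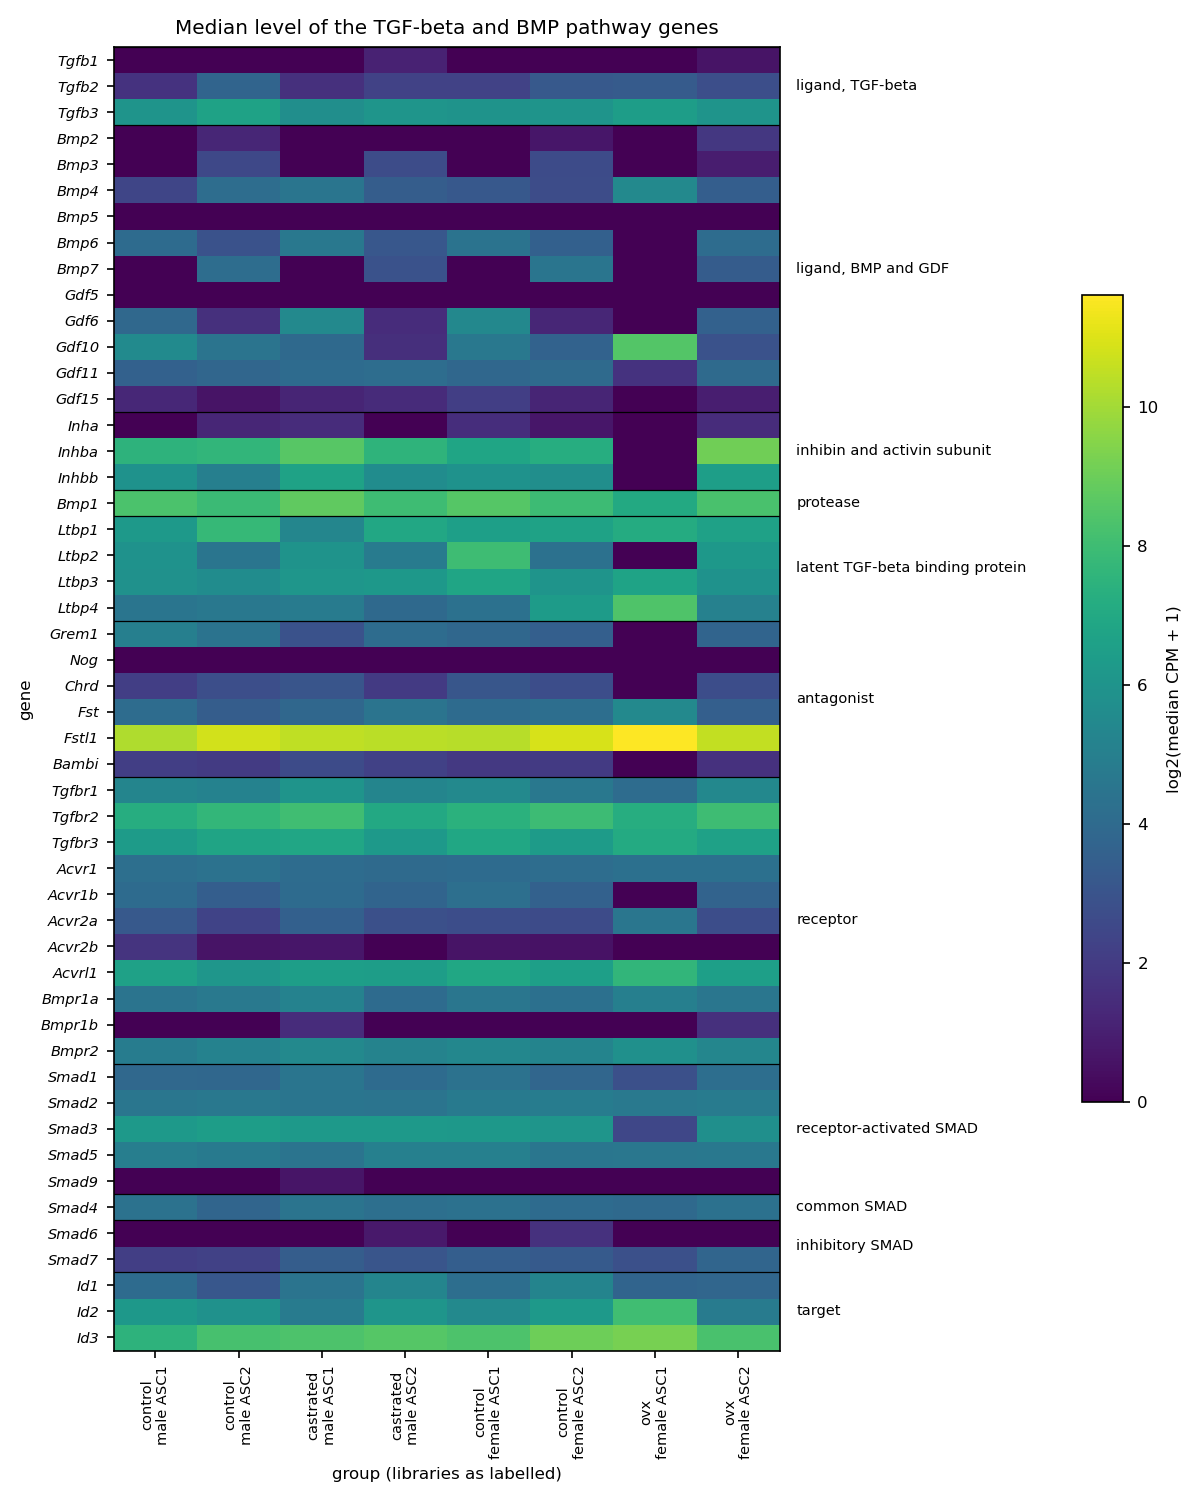
Median level of all 50 genes in each of the 8 groups, as log2 of the median CPM with 1 added, ordered by role. The column of ovariectomized (ovx) female ASC1 is dark for Inhba, Inhbb, Ltbp2, Grem1 and Smad3 and bright for Gdf10, Ltbp4 and Id2, whereas most receptor and SMAD genes keep 1 shade across the groups.

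ASC2 were compared with ASC1 under each of the 4 conditions, which asks how the pathway differs between the DPP4-positive and DPP4-negative cells. In control males 6 of 40 members were higher in ASC2, against 6.87% of all genes tested, and 3 were lower, against 5.33%, at an adjusted p under 0.05 in edgeR's quasi-likelihood test. Those higher were Bmp7, Bmp3, Tgfb2, Ltbp1, Bmp4 and Fstl1, and those lower were Ltbp2, Gdf6 and Gdf10. In control females 6 were higher (against 3.53% of all genes) and 3 lower (against 2.61%), with Bmp7, Bmp3, Ltbp4, Id2, Id3 and Fstl1 higher and Ltbp2, Gdf10 and Ltbp3 lower. Without the libraries that went against their sex label, 3 of 40 were higher (Bmp7, Tgfb2 and Ltbp1) and 5 lower (Ltbp2, Gdf6, Gdf10, Ltbp3 and Acvrl1) in control male ASC2, so that Bmp3, Bmp4 and Fstl1 lost their calls and Ltbp3 and Acvrl1 gained one. In control females 2 were left, Bmp7 and Ltbp4, in a fit without 5 of 8 ASC1 and 6 of 8 ASC2 libraries. For counts with libraries left out, here and below, the share of all genes called is not given. A drop in them cannot be read as particular to the members. The castrated male libraries gave 4 higher (against 4.47% of all genes) and 6 lower (against 4.62%). Bmp3, Bmp7, Id2 and Ltbp1 were higher, and Gdf10, Inhbb, Bmpr1a, Tgfbr2, Bmp1 and Tgfbr3 lower. In ovariectomized females 8 were higher (against 22.5% of all genes) and 10 lower (against 12.9%), and without ovariectomized female ASC1 library L the count of 18 became 10. The median log2 fold change of the 40 members in this last comparison was 0.35, beside 0.37 over all genes tested, and in the first 3 it lay between -0.17 and -0.09.

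The castration contrast compares libraries labelled castrated and control male. All 8 castrated male ASC1 libraries carried Xist and went against their sex label. In every contrast with that group, an effect of castration or of population and this mismatch cannot be told apart. In ASC1, 0 of 40 members were higher (against 1.06% of all genes) and 2 were lower (against 1.3%), Gdf10 and Id2, while 14 of 40 had an unadjusted p under 0.05 and DESeq2 called 3. The share of all genes at an unadjusted p under 0.05 was not counted, here or for the unadjusted counts below. Those counts are therefore no result about the members. In ASC2, 2 were higher (against 2.68% of all genes), Ltbp2 and Id1, and 3 lower (against 4.3%), Gdf10, Ltbp1 and Tgfbr3, and the count was 4 without the libraries against their sex label. Fitted on the compared groups only, the counts were 6 in ASC1 and 3 in ASC2. The castration effect differed between ASC2 and ASC1 for 4 members, with Ltbp2 and Id2 above 0 (against 1.53% of all genes) and Tgfbr2 and Tgfbr3 below 0 (against 0.882%).

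After ovariectomy 10 of 40 members were higher in ASC1 (against 12.7% of all genes) and 9 lower (against 22.1%), and without library L the 19 became 10. In ASC2 of the same label, 1 member was higher (against 0.658% of all genes), Inhba, and 1 lower (against 1.44%), Id2, and neither was past the threshold without the control female libraries that went against their label. Between control males and control females, 1 member was higher in males in ASC1 (against 0.136% of all genes), Gdf10, and 0 were lower (against 0.152%), with 6 of 40 at an unadjusted p under 0.05 and 1 called by DESeq2. In ASC2, 2 were higher in males (against 3.62% of all genes), Ltbp1 and Tgfb3, and 3 lower (against 2.84%), Ltbp4, Id1 and Id3, with 3 left without the libraries against their sex label. In all 28 of 40 members were past the threshold in at least 1 of 11 comparisons, as were 52.2% of all genes tested. In the 9 comparisons that did not use ovariectomized female ASC1 it was 21 of 40, beside 25.4% of all genes.

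**Figure D3:**
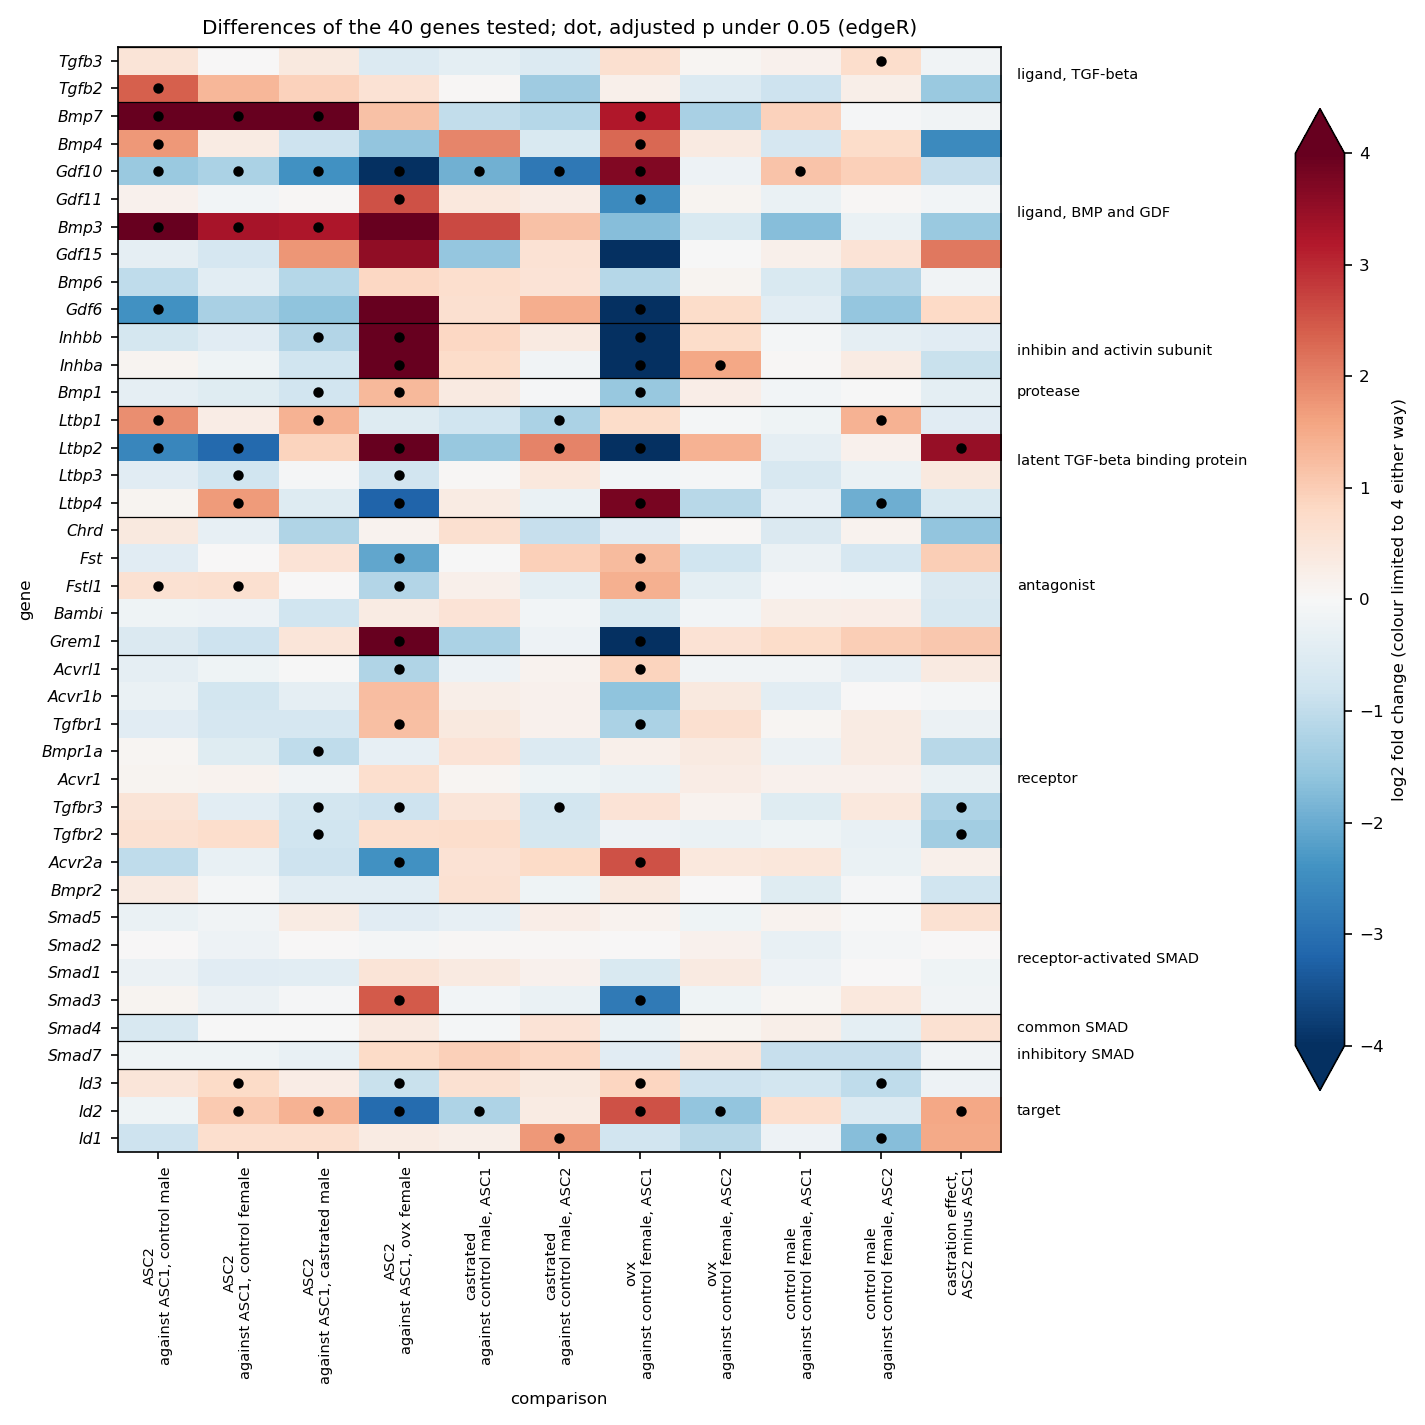
log2 fold changes of the 40 genes tested in the 11 comparisons, red where the first-named group is higher, with colours limited to 4 either way and a dot where the adjusted p (edgeR) is under 0.05. The columns with ovariectomized (ovx) female ASC1 hold 18 and 19 of the 84 dots, no other column holds more than 10, and Gdf10 has a dot in 8 of the 11 columns.

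Of the TGF-beta ligands, Tgfb2 and Tgfb3 were tested, and each passed the threshold in 1 comparison. Tgfb3 (ENSMUSG00000021253.8) ranged from 40.3 to 167 CPM with a median of 103 CPM in control male ASC2, and from 39.2 to 91.8 CPM with a median of 63.4 CPM in control female ASC2. The ranges overlapped, and Tgfb3 was higher in males, with a log2 fold change of 0.69 whose standard error (SE) was 0.19 (adjusted p = 0.0158, edgeR). Without control male ASC2 library D it was 0.56 (adjusted p = 0.0733, edgeR), and without the libraries against their label 1.07 (adjusted p = 0.11, edgeR). Tgfb2 (ENSMUSG00000039239.15) was at 0 to 4.36 CPM (median 2.22) in control male ASC1 and at 2.12 to 20.1 CPM (median 12.3) in ASC2, a log2 fold change of 2.39 (SE 0.57, adjusted p = 0.00299, edgeR). In control females the same contrast was 1.32 (SE 0.54, adjusted p = 0.151).

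Each of the 4 genes of latent TGF-beta binding proteins was past the threshold in at least 1 of the 11 comparisons, as were 52.2% of all genes tested. Ltbp1 (ENSMUSG00000001870.17) was at 158 to 638 CPM (median 218) in control male ASC2, against 55.5 to 88.9 CPM (median 75.8) in control male ASC1, 33.5 to 158 CPM (median 123) in castrated male ASC2 and 50.01 to 150 CPM (median 102) in control female ASC2. Within control males the 2 populations did not overlap (log2 fold change 1.85, SE 0.26, adjusted p = 9.43e-07, edgeR). Castrated ASC2 had less Ltbp1 than control male ASC2 by a log2 fold change of -1.25 (SE 0.25, adjusted p = 0.000563), with ranges that met at 158 CPM. None of the 8 control female ASC2 libraries reached the lowest of the 8 control male ones (1.39 higher in males, SE 0.25, adjusted p = 0.000165). Without the libraries against their sex label the last 2 contrasts were -1.53 and 2.27, both past the threshold. The castration effect on Ltbp1 in ASC1 was -0.81 (adjusted p = 0.11), and its difference from that in ASC2 was -0.44 (SE 0.37, adjusted p = 0.614).

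Ltbp4 (ENSMUSG00000040488.19) was at 12.96 to 150 CPM (median 82.5) in control female ASC2, against 2.00 to 60.5 CPM (median 19.1) in control female ASC1 and 6.36 to 33.4 CPM (median 23.9) in control male ASC2. Ranges overlapped in both contrasts. ASC2 exceeded ASC1 in control females by 1.71 (SE 0.37, adjusted p = 0.00115, edgeR), and males were lower than females in ASC2 by a log2 fold change of -1.94 (SE 0.36, adjusted p = 0.000311). Both calls held without the libraries against their sex label, at 2.84 and -2.21. Ltbp3 was lower in ASC2 than in ASC1 of control females (-0.81, SE 0.22, adjusted p = 0.0105), and without those libraries the value was -0.40 (adjusted p = 0.777).

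Ltbp2 (ENSMUSG00000002020.16), a fibrillin-binding member of the family, varied within groups as well. In control female ASC1 it was at 98.4 to 347 CPM (median 259), above all 8 libraries of control female ASC2 at 0 to 60.8 CPM (median 19.1), a log2 fold change of -3.12 for ASC2 (SE 0.60, adjusted p = 0.000245, edgeR). Without the libraries against their sex label, which left 3 and 2 libraries, it was -0.93 (adjusted p = 0.804). The 7 control male ASC1 libraries had 252, 385 and 401 CPM in B, C and D, and 39.8 to 59.1 CPM in E to H, which are the 4 that went against their sex label, while control male ASC2 lay between 0 and 65.0 CPM (log2 fold change -2.60, SE 0.59, adjusted p = 0.00174). Castrated male ASC2 had 291 and 464 CPM in libraries I and J and 2.91 to 49.5 CPM in the other 6. Marker sums moved with it: 5 macrophage genes were at 620 and 708 CPM in I and J and at 134 to 387 CPM in the other 6, and 5 ASC1 genes at 395 and 458 against 23.3 to 231 CPM, and their part in the result was not tested. The castration contrast in ASC2 was 1.98 (SE 0.58, adjusted p = 0.0267) and became -0.30 (adjusted p = 0.817) with I and J left out, so its direction rested on these 2 libraries. Leaving out I or J alone gave 1.61 (adjusted p = 0.0979) and 1.14 (adjusted p = 0.208), and leaving out control male ASC2 library B, D or F gave 1.82 to 1.89 (adjusted p = 0.0554 to 0.0651). The same holds for the difference of the castration effect between populations, 3.49 (SE 0.81, adjusted p = 0.00855) with them and 1.22 (adjusted p = 0.414) without.

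Of the BMP ligands, Bmp7 and Bmp3 had few or no reads in ASC1 outside ovariectomized females. Bmp7 (ENSMUSG00000008999.8) had 3, 1 and 1 reads over the ASC1 libraries labelled control male, control female and castrated male, against 129, 121 and 46 reads in the ASC2 libraries. The ratios of the pooled levels were 36.5 (95% counting interval 12.2 to 179) in control males, 102 (17.9 to 4042) in control females and 42.3 (7.23 to 1708) in castrated males. Every control male ASC2 library was above every control male ASC1 library, at 4.39 to 46.3 CPM (median 16.5) against 0 to 2.55 CPM. The adjusted p (edgeR) was 4.44e-06, 7.72e-07 and 0.000219 in the 3 contrasts. In ovariectomized females the contrast was 1.18 (SE 0.95, adjusted p = 0.337), with 5 reads in ASC1, all in library L.

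Bmp3 (ENSMUSG00000029335.6), an atypical BMP that opposes other BMPs, averaged under 5 CPM over all libraries. It had no read in the 7 ASC1 and 30 reads in the 8 ASC2 libraries of control males, which made it at least 8.49-fold higher in ASC2 with a floor of 3 counts over the ASC1 group (adjusted p = 0.00078, edgeR). Control females had 2 and 34 reads (ratio 14.3, 95% counting interval 3.66 to 123, adjusted p = 0.00853). The adjusted p (edgeR) was 0.0597 in control males and 0.289 in control females without the libraries against their sex label. In castrated males the log2 fold change was 3.24 (SE 0.73, adjusted p = 0.00188), with 1 ASC2 library at 42.0 CPM and a median of 5.39 CPM. Intervals and floors cover counting error only, since reads without identifiers are not independent molecules.

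Bmp4 (ENSMUSG00000021835.16), the BMP best known for adipocyte commitment, was at 4.24 to 20.9 CPM (median 16.6) in control male ASC2 and 0 to 10.9 CPM (median 4.36) in control male ASC1. The log2 fold change was 1.75 (SE 0.58, adjusted p = 0.0383, edgeR), and the call ended without ASC1 library B, D, E, G or H or ASC2 library B, C, E or G (1.499 to 1.75, adjusted p = 0.0511 to 0.0936), and without the libraries against their sex label (1.67, adjusted p = 0.216). In castrated male ASC1 the median was 22.0 CPM, and castration gave 1.964 (SE 0.59, adjusted p = 0.0585). Gdf6, also called BMP13, ran the other way between the populations of control males, with a median of 14.2 CPM in ASC1 and 2.06 CPM in ASC2 (log2 fold change -2.41, SE 0.82, adjusted p = 0.043), and DESeq2 gave an adjusted p of 0.0552. That call ended without ASC1 library B, C or D or ASC2 library A, B, C, D, F or H (-2.37 to -2.10, adjusted p = 0.059 to 0.12, edgeR). Bmp6 did not pass the threshold in any comparison, with log2 fold changes between -1.18 and 0.84.

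Gdf10 (ENSMUSG00000021943.8), also called BMP3B, was past the threshold in more comparisons than any other member. Control male ASC1 held it at 24.2 to 107 CPM (median 45.9) and castrated male ASC1 at 7.67 to 27.95 CPM (median 14.7), and only the highest castrated library reached into the control range. The log2 fold change after castration was -1.93 in ASC1 (SE 0.30, adjusted p = 1.94e-05, edgeR). All castrated male ASC1 libraries went against their sex label, and the part of this was not tested. In ASC2 the 8 control male libraries were at 12.7 to 31.2 CPM (median 21.3) and the 8 castrated ones at 1.27 to 6.03 CPM (median 1.95), without overlap, a log2 fold change of -2.85 (SE 0.39, adjusted p = 7.39e-07). It was -3.03 (adjusted p = 1.26e-05) without the 4 control male libraries that went against their label. The difference between the castration effects in ASC2 and ASC1 was -0.92 (SE 0.49, adjusted p = 0.368).

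Gdf10 was lower in ASC2 than in ASC1 under all 4 conditions, with log2 fold changes of -1.49 in control males (adjusted p = 0.000134), -1.27 in control females (adjusted p = 0.00542), -2.41 in castrated males (adjusted p = 3.61e-05) and -5.17 in ovariectomized females (adjusted p = 2.37e-18; all edgeR). Without the libraries against their sex label the contrast in control females was -0.82 (adjusted p = 0.599). Control females had less than control males, with 6.56 to 50.8 CPM (median 24.2) in ASC1 and 2.80 to 16.5 CPM (median 11.4) in ASC2. The contrast of males with females was 1.15 in ASC1 (SE 0.28, adjusted p = 0.0451) and 0.94 in ASC2 (SE 0.31, adjusted p = 0.053). The first was not past the threshold in a fit of the compared groups only (adjusted p = 0.151) and lost its call without female library A, C, D, E, G or H or male library B, C, D or G (0.91 to 1.19, adjusted p = 0.0509 to 0.178). In ovariectomized female ASC2 Gdf10 was at 0 to 16.8 CPM (median 6.54), with a contrast of -0.19 against control females (95% interval -0.88 to 0.49).

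The activin subunit gene Inhba was read at high levels in 7 of the 8 groups. Inhba (ENSMUSG00000041324.15) was at 33.4 to 656 CPM in the 55 libraries outside ovariectomized female ASC1, with a median of 212 CPM. In ovariectomized female ASC2 it was at 331 to 656 CPM (median 541), above all 8 libraries of control female ASC2 at 97.1 to 288 CPM (median 147). The log2 fold change was 1.55 (SE 0.36, adjusted p = 0.00971, edgeR), and without the 6 control female ASC2 libraries against their sex label it was 0.83 (adjusted p = 0.976) with 2 libraries left. Mural cell markers moved with it: the sum of 7 such genes was 1318 to 3516 CPM in ovariectomized and 192 to 2393 CPM in control female ASC2. The sum of 5 epithelial marker genes was 10.1 to 1182 CPM (median 251) in the former and 6.27 to 36.6 CPM (median 15.9) in the latter, and the part of either in the result was not tested. Inhbb, the beta B subunit gene, was lower in ASC2 than in ASC1 of castrated males, at 8.73 to 67.0 against 73.6 to 128 CPM without overlap (log2 fold change -1.16, SE 0.34, adjusted p = 0.0188). Without castrated male ASC2 library K the value was -0.98 (adjusted p = 0.0547).

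Bmp1, a protease that cleaves procollagen and the BMP antagonist chordin, was at 314 to 469 CPM (median 435) in castrated male ASC1 and at 96.0 to 317 CPM (median 257) in castrated male ASC2 (log2 fold change -0.76, SE 0.19, adjusted p = 0.00682, edgeR). The ranges overlapped at their ends only.

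Of 5 antagonists tested, 1 was past the threshold in at least 1 of the 9 comparisons without ovariectomized female ASC1, beside 25.4% of all genes. This was Fstl1 (ENSMUSG00000022816.12). It was at 1471 to 2200 CPM (median 1798) in control male ASC2, above all ASC1 libraries of the label at 981 to 1450 CPM (log2 fold change 0.60, SE 0.14, adjusted p = 0.00323, edgeR). Control females gave 0.63 (SE 0.14, adjusted p = 0.00154), and castrated males 0.01 (95% interval -0.26 to 0.28). Neither control contrast was past the threshold without the libraries against their sex label, at 0.53 (adjusted p = 0.145) in males and 1.025 (adjusted p = 0.0518) in females. Grem1, Fst, Chrd and Bambi did not pass in any of the 9 comparisons without ovariectomized female ASC1, with log2 fold changes between -1.58 and 1.07.

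Over the 9 comparisons without ovariectomized female ASC1, 3 of 9 receptors tested were past the threshold in at least 1, beside 25.4% of all genes, and log2 fold changes lay between -1.40 and 0.77. Tgfbr2 (ENSMUSG00000032440.14), the type II receptor of TGF-beta, was at 156 to 292 CPM (median 260) in castrated male ASC1 and 100 to 233 CPM (median 128) in castrated male ASC2. It was lower in ASC2 there by a log2 fold change of -0.80 (SE 0.25, adjusted p = 0.029, edgeR), whereas control males gave 0.60 (SE 0.26, adjusted p = 0.116). The call in castrated males ended without ASC1 library K, L, M or N or ASC2 library K or M (-0.78 to -0.73, adjusted p = 0.0519 to 0.0684). The castration effect was 0.70 in ASC1 (adjusted p = 0.158) and -0.71 in ASC2 (adjusted p = 0.0687), and the difference between them, -1.40, was past the threshold (SE 0.36, adjusted p = 0.0175).

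Tgfbr3 (betaglycan, ENSMUSG00000029287.15), a co-receptor that presents TGF-beta and binds inhibin, gave the same order. The castration contrast was 0.50 in ASC1 (adjusted p = 0.335) and -0.75 in ASC2 (SE 0.23, adjusted p = 0.0306, edgeR), with a difference of -1.25 (SE 0.32, adjusted p = 0.02). Castrated male ASC2 held it at 27.6 to 93.2 CPM (median 76.3) and control male ASC2 at 89.0 to 172 CPM (median 110). The ranges overlapped at 1 end, and the call in ASC2 ended without castrated library K, L or O or control library C, D or F (-0.73 to -0.60, adjusted p = 0.0538 to 0.0901), and without the libraries against their sex label (-0.86, adjusted p = 0.0722). Castrated male ASC2 was also below castrated male ASC1 in Tgfbr3 (-0.74, SE 0.23, adjusted p = 0.0276), a call that ended without library K, M or O of ASC1 or K, L or O of ASC2 (-0.70 to -0.60, adjusted p = 0.0519 to 0.0848). Bmpr1a, a type I BMP receptor gene, was lower in ASC2 than in ASC1 of castrated males (-1.01, SE 0.29, adjusted p = 0.015). All castrated male ASC1 libraries carried Xist and at most 4.78 CPM of Y-chromosome genes, whereas castrated male ASC2 libraries carried 56.7 to 94.4 CPM of them, and the part of this split in these contrasts was not tested.

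SMADs carry the signal from the receptors to the nucleus. Smad1, Smad2, Smad4, Smad5 and Smad7 did not pass the threshold in any of the 11 comparisons, with lowest adjusted p values of 0.47, 0.726, 0.127, 0.35 and 0.203 (edgeR). Over the 9 comparisons without ovariectomized female ASC1, the 4 receptor-activated SMADs tested had log2 fold changes between -0.45 and 0.60, and Smad7, the inhibitory SMAD induced by the pathway, between -0.92 and 0.96. Acvr1, Acvr1b, Bmpr2, Bambi, Bmp6, Chrd and Gdf15 also passed in none of the 11.

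The Id genes encode inhibitors of basic helix-loop-helix factors and are listed here as targets of BMP. The 3 did not always move together, so they are given 1 by 1. Id2 (ENSMUSG00000020644.10) was at 46.9 to 90.4 CPM (median 71.1) in control male ASC1 and at 16.6 to 46.0 CPM (median 27.3) in castrated male ASC1, without overlap (log2 fold change -1.24, SE 0.31, adjusted p = 0.0143, edgeR). That call ended without the libraries under 300000 counts. In ASC2 castration gave 0.32 (95% interval -0.23 to 0.87), and the difference between the populations was 1.56 (SE 0.42, adjusted p = 0.025). The castrated male ASC1 libraries enter this difference and the ASC1 contrast, and all went against their sex label. The part of that was not tested. In control females Id2 was higher in ASC2 than in ASC1 (1.05, SE 0.29, adjusted p = 0.0161), but 0.63 (adjusted p = 0.206) without ASC2 library E, and -0.24 (adjusted p = 0.93) without the libraries against their label. The difference of the castration effects was 1.26 (adjusted p = 0.0655) without castrated male ASC2 library K, which held 180 CPM, the highest of its group. In ovariectomized female ASC2, Id2 was at 7.69 to 49.2 CPM (median 27.2), against 37.8 to 245 CPM (median 76.6) in control female ASC2 (log2 fold change -1.59, SE 0.30, adjusted p = 0.000921). Without the control female libraries against their sex label it was -0.46 (adjusted p = 1), and 2 control libraries, C and D, were left, at 41.3 and 37.8 CPM.

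Id1 (ENSMUSG00000042745.10) was at 4.75 to 19.8 CPM (median 7.81) in control male ASC2, 14.4 to 50.9 CPM (median 37.5) in castrated male ASC2 and 10.8 to 56.0 CPM (median 36.5) in control female ASC2. It was higher after castration by 1.74 (SE 0.39, adjusted p = 0.00252, edgeR) and lower in males than in females by a log2 fold change of -1.69 (SE 0.39, adjusted p = 0.0035). These contrasts share the control male ASC2 libraries. Without the libraries against their sex label the first was 1.46 (adjusted p = 0.0288) and the second -0.23 (adjusted p = 0.889). Id3 was also lower in male than in female ASC2, at 109 to 414 CPM (median 299) against 435 to 902 CPM (median 533) without overlap (-1.03, SE 0.24, adjusted p = 0.0043), and without those libraries it was -1.10 (adjusted p = 0.107). Between ASC2 and ASC1 of control females Id3 was 0.77 higher (SE 0.24, adjusted p = 0.039), and the call ended without ASC1 library A, D, E, F, G or H or ASC2 library B, E or H (0.65 to 0.78, adjusted p = 0.0554 to 0.135).

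**Figure D4:**
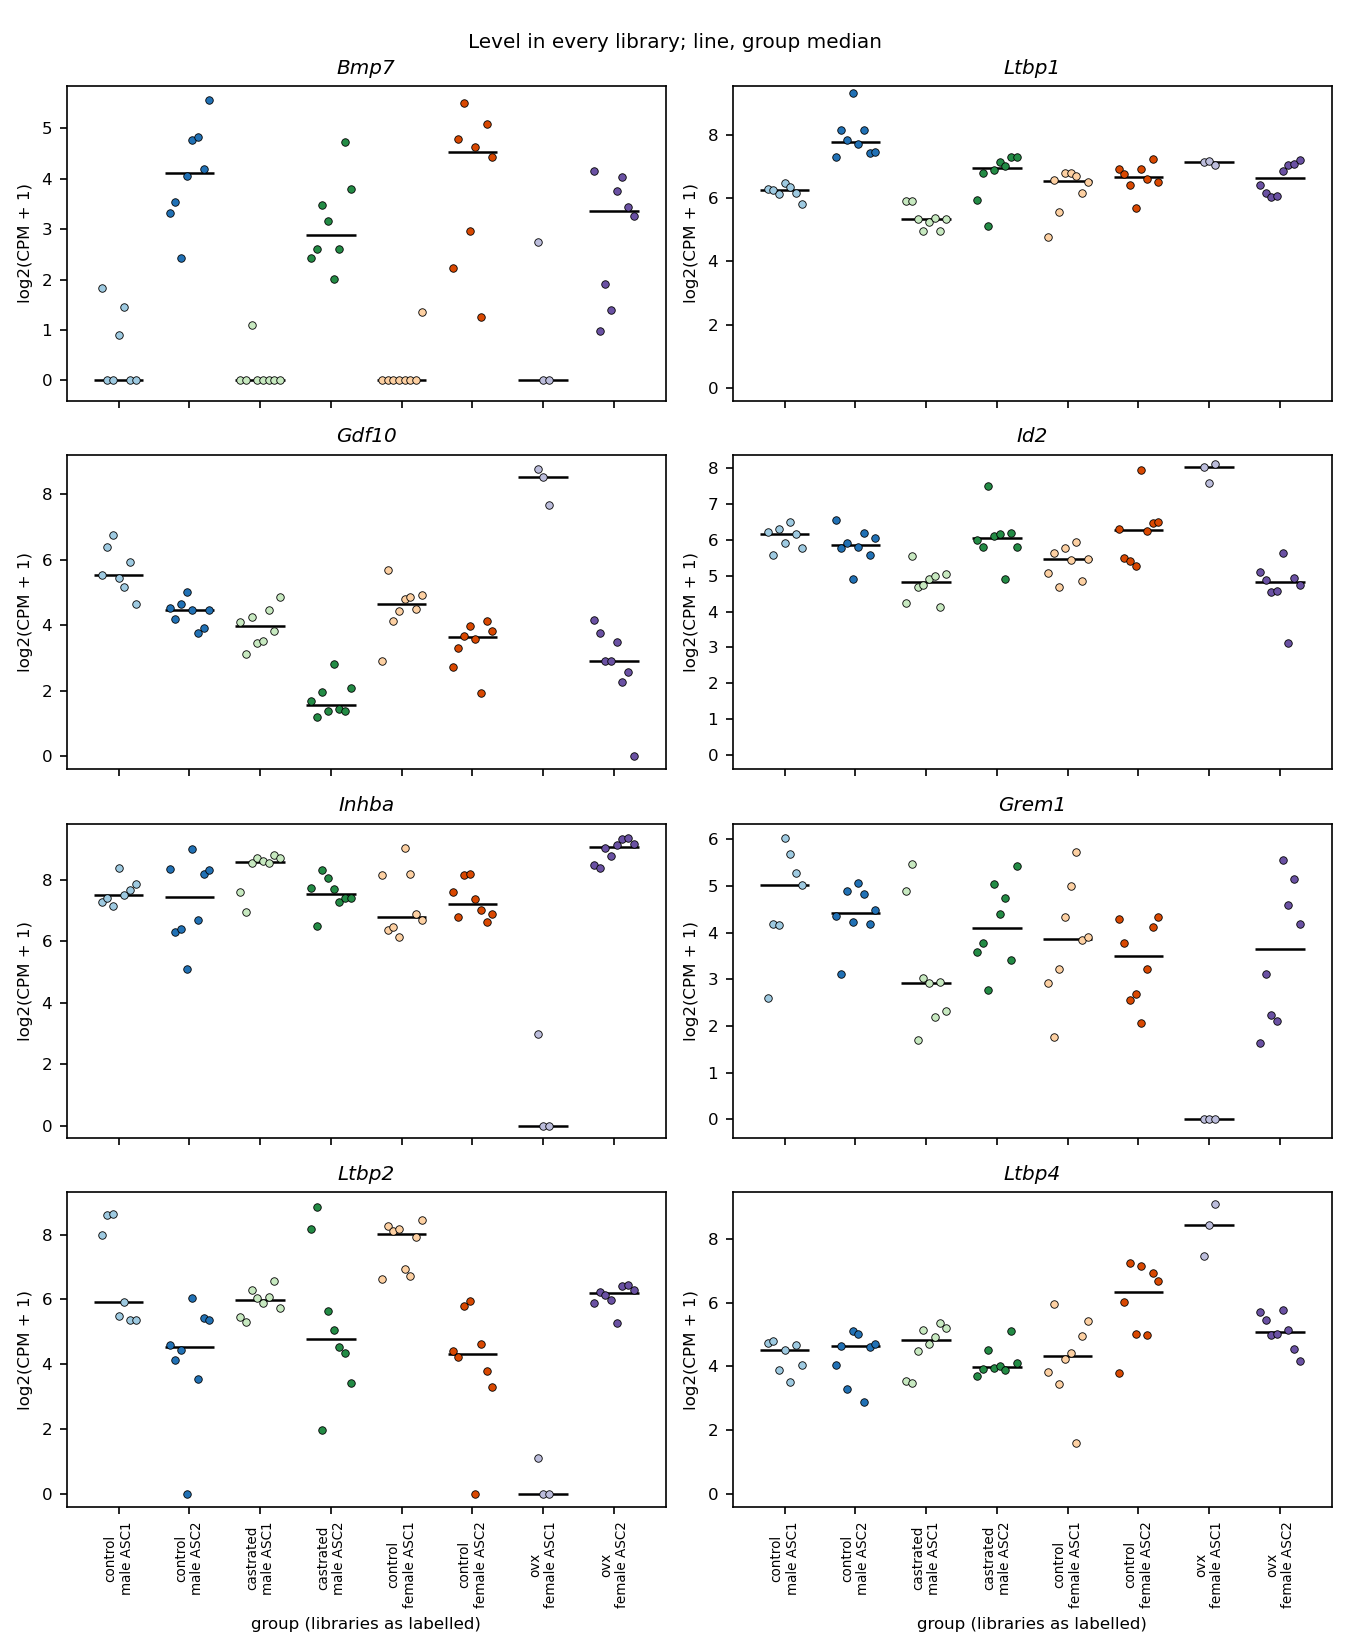
Level of 8 genes in each of the 58 libraries, as log2 of CPM with 1 added, by labelled group, with a line at the group median. Bmp7 sits near 0 in ASC1 of every label, Gdf10 is lower in both castrated groups, and the 3 ovariectomized (ovx) female ASC1 libraries lie at 0 to 6.86 CPM of Inhba and Grem1 and at 204 to 437 CPM of Gdf10.

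The 3 ovariectomized female ASC1 libraries, L, N and P, were outside the range of the other 55 for 6 of 50 members, all 6 among the 40 tested. Library N had 256557 and library P 188591 counts in total, both under 300000. The part of this low depth in genes without a read was not tested. Inhba was at 6.86, 0 and 0 CPM, and Grem1, the gene of the BMP antagonist gremlin 1, had no read in any of the 3. Gdf10, Acvrl1, Fstl1 and Ltbp4 were above every other library. Over all 12465 genes tested, 510 lay below and 336 above the range of the other 55 libraries. Acvrl1, which encodes the type I receptor ALK1 for BMP9 and BMP10, was at 188, 199 and 223 CPM in library order by level, against 34.1 to 155 CPM elsewhere. Endothelial marker genes were at 0 to 25.1 CPM in these 3 libraries and at 14.5 to 141 CPM in the others. The part of endothelial cells in the Acvrl1 level was not tested.

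Upstream sequences of 4 of these genes are shown because they moved in opposite directions in the same 3 libraries, Inhba and Grem1 to or near 0 and Gdf10 and Id2 above the controls. Each line holds the 250 bases before the RefSeq transcript start, 5' to 3' on the gene's strand (GRCm38.p6; the counts were made on GRCm39, so these are reference sequences and not positions in the files). Capitals mark GGCGCC, a GC-rich element known to bind SMAD1 and SMAD5, which reads the same on both strands. It occurs in 9.59% of all 32851 promoters of this length and in 10 of 43 promoters of the members matched. Counted by gene, 10.8% of 27025 genes and 9 of the 34 members matched hold it in at least 1 promoter. Inhba lies at chr13:16011601-16011850 (plus strand), Grem1 at chr2:113758649-113758898 (minus), Gdf10 at chr14:33923337-33923586 (plus) and Id2 at chr12:25096093-25096342 (minus).
Inhba: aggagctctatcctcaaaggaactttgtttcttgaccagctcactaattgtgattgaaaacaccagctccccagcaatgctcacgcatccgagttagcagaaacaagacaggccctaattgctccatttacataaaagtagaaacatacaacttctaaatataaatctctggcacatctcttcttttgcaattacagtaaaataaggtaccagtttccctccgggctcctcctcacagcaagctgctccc
Grem1: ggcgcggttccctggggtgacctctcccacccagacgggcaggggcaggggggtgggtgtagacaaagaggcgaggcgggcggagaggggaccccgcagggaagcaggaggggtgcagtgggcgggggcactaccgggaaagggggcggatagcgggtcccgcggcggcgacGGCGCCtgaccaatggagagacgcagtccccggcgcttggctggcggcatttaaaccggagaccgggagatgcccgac
Gdf10: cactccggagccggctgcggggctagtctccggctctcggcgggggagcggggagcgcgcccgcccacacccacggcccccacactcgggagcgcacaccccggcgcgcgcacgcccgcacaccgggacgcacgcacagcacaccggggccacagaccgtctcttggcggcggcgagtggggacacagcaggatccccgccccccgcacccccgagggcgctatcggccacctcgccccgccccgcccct
Id2: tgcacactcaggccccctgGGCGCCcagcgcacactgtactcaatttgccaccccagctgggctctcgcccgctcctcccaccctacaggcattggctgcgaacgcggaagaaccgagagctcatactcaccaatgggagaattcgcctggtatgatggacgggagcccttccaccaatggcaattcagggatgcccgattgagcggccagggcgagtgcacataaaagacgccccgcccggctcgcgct
The windows differ in base composition, with 43.2% G and C for Inhba, 72% for Grem1, 78.8% for Gdf10 and 62.8% for Id2. Grem1 and Id2 hold 1 match each, starting 78 and 231 bases before the start, and 1 of these genes was absent and the other high in the 3 libraries. A match is a run of letters only and says nothing of binding in these cells.

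Lower in ovariectomized than in control female ASC1 were the activin genes Inhba and Inhbb, Ltbp2, Grem1, the ligands Gdf6 and Gdf11, Smad3, Bmp1 and Tgfbr1. Inhba had a log2 fold change of -5.40 (SE 0.88, adjusted p = 1.96e-06, edgeR), with 69.8 to 525.7 CPM (median 110) in the controls. Inhbb had 1 read in the 3 libraries, in N, against 286 in 8 controls, a 75.6-fold lower pooled level (95% counting interval 13.5 to 2998). Ltbp2 had 1 read, in L, against 1089, which is 288-fold lower (51.6 to 11387). Grem1 was at least 8.38-fold lower with a floor of 3 counts over the group, against 95 reads in the controls. Gdf6 had 1 read against 152 (40.2-fold lower, 7.11 to 1598) and Gdf11 3 reads against 74 (6.52-fold lower, 2.15 to 32.4).

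Smad3 was the 1 SMAD past the threshold here, at 1.14, 4.58 and 49.5 CPM in L, N and P, against 45.9 to 113 CPM (median 71.6) in control female ASC1 (log2 fold change -2.84, SE 0.51, adjusted p = 1.43e-05, edgeR). The third value rests on 8 reads and lies within the control range. Bmp1 was at 85.7 to 161 CPM, below the controls at 229 to 421 CPM (-1.52, SE 0.30, adjusted p = 7.59e-05). Tgfbr1, the type I receptor of TGF-beta, was also lower (-1.27, SE 0.47, adjusted p = 0.0295). Without library L the calls of Grem1 (adjusted p = 0.108), Gdf6 (0.175), Gdf11 (0.0614) and Tgfbr1 (0.199) ended. That of Gdf6 also ended without N (0.0774) or P (0.0662) or without the control libraries against their sex label (0.198), and that of Tgfbr1 without N (0.0976) or control library F (0.0533).

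Higher in these libraries than in control female ASC1 were Ltbp4, Gdf10, Id2, Acvr2a, Bmp4, Fstl1 and Fst, besides Acvrl1 (0.91, adjusted p = 0.0116), Id3 (0.85, adjusted p = 0.0289) and Bmp7 on 5 reads of library L. Gdf10 was at 437, 367 and 204 CPM in L, N and P (log2 fold change 3.71, SE 0.32, adjusted p = 1.01e-13, edgeR) and Ltbp4 at 175, 344 and 539 CPM (3.79, SE 0.44, adjusted p = 6.7e-10). Id2 was at 261, 193 and 279 CPM, above all control female ASC1 libraries at 25.0 to 60.1 CPM (2.54, SE 0.36, adjusted p = 1.1e-07). Id1 had a log2 fold change of -0.77 and was not past the threshold. Fstl1 reached 2976 to 3685 CPM, above each of the other 55 libraries (1.41, SE 0.18, adjusted p = 5.28e-09). Fst, which encodes the activin-binding follistatin, was at 36.7 to 48.0 CPM (1.28, SE 0.48, adjusted p = 0.033), and Acvr2a at 9.17 to 92.9 CPM (2.55, SE 0.60, adjusted p = 0.000661). Without library P, Acvr2a was at 1.495 (adjusted p = 0.0728). Fst was not past the threshold without L (1.12, adjusted p = 0.216), P (1.31, adjusted p = 0.0537) or control library B, F or H (1.198 to 1.22, adjusted p = 0.0501 to 0.052), and Bmp4 not without L (2.02, adjusted p = 0.116). Acvrl1 and Id3 also lost their calls without L (0.89, adjusted p = 0.0632, and 0.73, adjusted p = 0.167), and Id3 without P (0.89, adjusted p = 0.0543) or control library F (0.79, adjusted p = 0.0503). Bmp7 (3.21, adjusted p = 0.0458) changed direction without L, to -1.10 (adjusted p = 0.84), and lost its call without any 1 of control libraries A to G (3.04 to 3.19, adjusted p = 0.0517 to 0.0728). Without the control female libraries against their sex label, 17 members were past the threshold.

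Within ovariectomized females the same 3 libraries give the contrast of ASC2 with ASC1, so the 2 comparisons are not independent. Inhba was higher in ASC2 by a log2 difference of 6.79 (SE 0.88, adjusted p = 1.07e-08, edgeR), Gdf10 lower by a log2 fold change of -5.17, Ltbp4 of -3.19 (SE 0.43, adjusted p = 3.05e-08) and Id2 of -3.07 (SE 0.37, adjusted p = 1e-09). Ratios of the pooled levels were 103 for Inhbb (95% counting interval 18.4 to 4077), 81.3 for Ltbp2 (14.5 to 3222) and 6.58 for Gdf11 (2.18 to 32.6), and Grem1 was at least 6.11-fold higher in ASC2. Acvrl1 was at 44.6 to 120 CPM in ASC2, below the ASC1 libraries (-1.21, SE 0.29, adjusted p = 0.000721). Without library L the calls of Grem1 (adjusted p = 0.133), Ltbp2 (0.0696), Gdf11 (0.0538), Smad3 (0.0593), Tgfbr1 (0.212), Id3 (0.14), Tgfbr3 (0.484) and Ltbp3 (0.0874) ended, without P that of Acvr2a (0.0999), and that of Tgfbr1 also without ASC1 library N (0.107) or ASC2 library I or L (0.0597 and 0.0515). Those of Ltbp3 (without ASC1 library N or P or ASC2 library L, O or P, adjusted p = 0.0551 to 0.121) and Tgfbr3 (without ASC2 library O, 0.059) ended as well.

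Libraries of 1 label also differed among themselves in the BMP ligands and in Grem1. In ovariectomized female ASC2, Gdf6 was at 16.8, 48.0, 37.1 and 42.8 CPM in libraries I to L and at 5.72, 0, 2.48 and 0 CPM in M to P. Bmp4 was at 17.8, 19.2, 19.5 and 18.1 CPM in I to L and at 2.29 CPM in M, without a read in N, O and P. Grem1 was at 2.10, 7.68, 3.71 and 3.29 CPM in I to L and at 45.8, 23.1, 34.7 and 17.1 CPM in M to P. The libraries that were high in the BMP genes were thus low in the antagonist, and the other way round. Epithelial markers split the same way, at 10.1 to 27.8 CPM in I to L and 474 to 1182 CPM in M to P.

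Control male ASC1 had a like order for Gdf6, at 33.1, 49.3 and 49.8 CPM in B, C and D and 3.49 to 14.2 CPM in E to H, with Grem1 at 5.10, 17.2 and 16.9 CPM in B to D and 31.3 to 64.5 CPM in E to H. Libraries E to H are those against their sex label, with 59.6 to 73.5 CPM of Xist, against 0 in B to D. Macrophage markers were at 471 to 593 CPM in B to D and 63.2 to 95.3 CPM in E to H, and epithelial markers at 5.85 to 21.9 and 106 to 223 CPM. Castrated male ASC1 had Gdf6 at 5.39 and 6.39 CPM and Grem1 at 28.7 and 43.4 CPM in I and J, against 36.6 to 67.9 CPM and 2.26 to 7.17 CPM in K to P, with mural markers at 751 and 1007 CPM in I and J and at 2182 to 2548 CPM in K to P. Letters name the rows of the plate. The part of the other cell types' markers in these splits was not tested. These sets of libraries were noticed in the values, and no test was made between them.

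**Figure D5:**
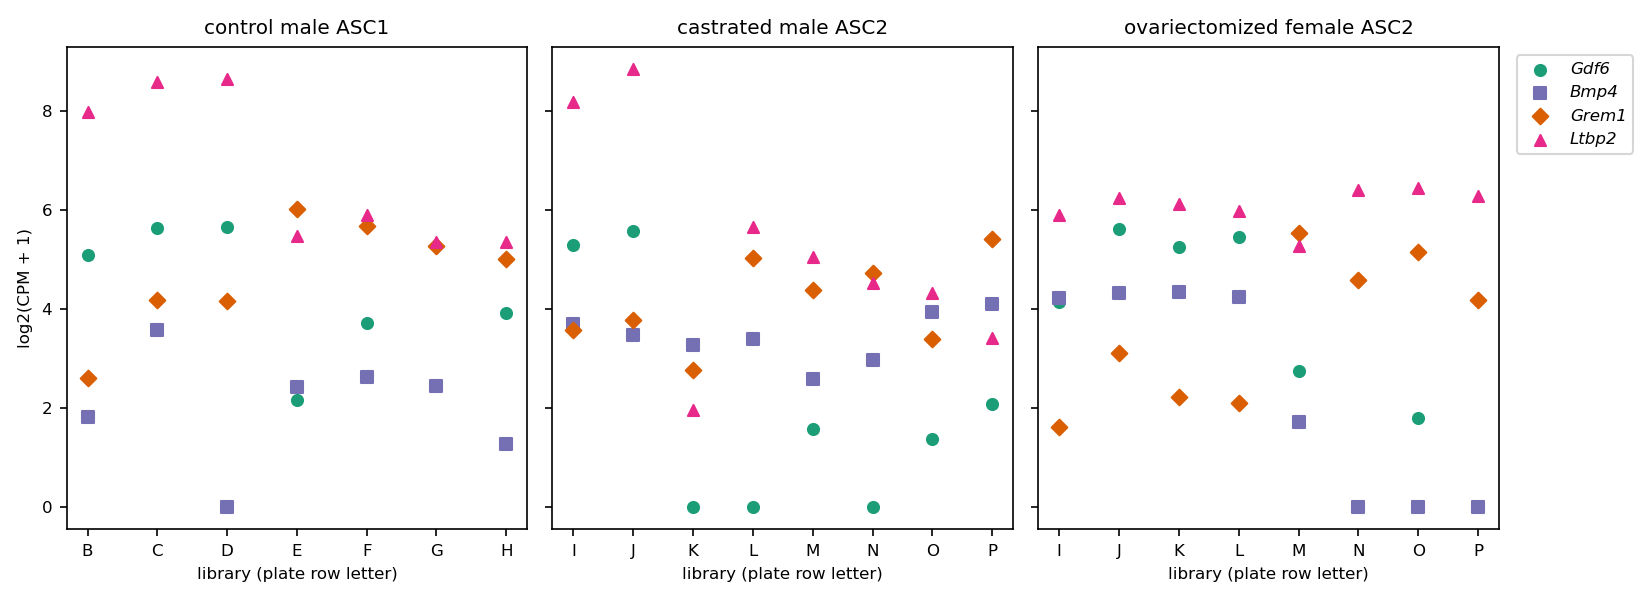
Level of Gdf6, Bmp4, Grem1 and Ltbp2 in each library of 3 groups, as log2 of CPM with 1 added, by plate row letter. In ovariectomized female ASC2 libraries I to L hold Gdf6 and Bmp4 above Grem1 and M to P the reverse, and in castrated male ASC2 Ltbp2 is high in I and J only.

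Of 54 other genes of the pathway (SMAD targets, co-receptors, matrix genes and further antagonists), 39 were tested. In control males ASC2 gave 1 higher and 8 lower (6.87% and 5.33% of all genes), in control females 2 and 4 (3.53% and 2.61%), in castrated males 1 and 8 (4.47% and 4.62%), and in ovariectomized females 12 and 7 (22.5% and 12.9%). Bmper, a secreted BMP modulator, was lower in ASC2 than in ASC1 of control males (-2.93, SE 0.55, adjusted p = 0.000154, edgeR) and of control females (-2.29, SE 0.51, adjusted p = 0.00154). Zeb1, a repressor of the epithelial state, was higher in control male ASC2 than in ASC1 (1.88, SE 0.29, adjusted p = 3.83e-06, edgeR).

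Castration gave 1 higher and 1 lower of the 39 in ASC1 (1.06% and 1.3% of all genes) and 5 and 2 in ASC2 (2.68% and 4.3%). Thbs1, whose product activates latent TGF-beta, was higher in castrated male ASC1 (1.24, SE 0.34, adjusted p = 0.0296, edgeR). After ovariectomy 7 were higher and 12 lower in ASC1 (12.7% and 22.1% of all genes), and 4 higher and 0 lower in ASC2 (0.658% and 1.44%). In ASC2 Ccn2, Thbs1 and Lrrc32 were among the 4, and Ccn2 had a mean of 179 CPM against 59.6 CPM in the controls (1.58, SE 0.33, adjusted p = 0.00302). Of the control female ASC2 libraries, 6 of 8 went against their sex label, and without them no member was past the threshold in this contrast. For the other pathway genes only the main fit is given, here and in every other comparison. In ovariectomized female ASC1 Thbs1 was low, at a mean of 44.0 CPM against 1028 CPM in control female ASC1 (-4.43, SE 0.60, adjusted p = 3.94e-08, edgeR), whereas Tgfbi, a TGF-beta target, was at 1014 against 62.6 CPM (3.98, adjusted p = 3.68e-14). Between control males and females 0 of 39 passed in ASC1 by edgeR, with 6 at an unadjusted p under 0.05, and 2 were higher and 4 lower in ASC2 (3.62% and 2.84% of all genes).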

How the data were processed

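The table held estimated counts per gene in 58 libraries, deposited by the authors, who trimmed reads with NGmerge, quantified them with Salmon 1.9.0 on Gencode transcripts of GRCm39, used STAR 2.7.10a for quality control, summed reads with and without identifiers, and removed libraries with few genes. Of the counts above 0, 14.99% were not whole, and counts were rounded. Genes that had 5 or more reads in over 3 libraries were fitted with edgeR 4.0.16 (R 4.3.3, TMM scaling, quasi-likelihood test, 1 coefficient for each of 8 groups), with Benjamini-Hochberg adjustment over all 12465 genes and a threshold of 0.05. Member levels are TMM-scaled CPM, and marker sums and sex transcripts are CPM of the total counts. Alternatives used DESeq2 1.42.0, limma 3.58.1 and the settings given in the closing section. On data simulated for castrated against control male ASC2, 193 of 200 genes changed 4-fold among 12465 were recovered, with 6 false calls. How many genes are recovered or falsely called where libraries go against their sex label or split within a group was not tested. No 2 libraries of the same group were copies of each other, and pairs across groups were not compared. The members and lists were chosen with earlier results of these data known. Values were given for members past the threshold that averaged 5 CPM or more, up to 8 per comparison and direction by size of the log2 fold change, with read counts for those under 5 CPM, and up to 3 of the other pathway genes; further members were named where a result turned on them, after their values were seen. Lengths came from the longest annotated transcript of each gene, and promoter sequences from RefSeq, in which 34 of 50 members matched. 1 gene of the wider pathway list is not reported here by name.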

Additional observations from a re-analysis of the deposited data

Results flagged for a closer look

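Single libraries far from the rest of their group (Dixon's test at 95%) were found in 23 of 189 checks of a group of 4 to 10 libraries for a member past the threshold. Chance gives about 1 in 20 for independent checks of normally distributed values. These checks share libraries and include values at or near 0, so no excess over chance is claimed. All values are CPM. In castrated male ASC2, library K was lowest for Bmp1 (96.0), Inhbb (8.73) and Smad3 (29.1) and library J for Id3 (185). In control female ASC2, library E was highest for Id2 (245) and Id3 (902) and lowest for Inhbb (0) and Ltbp2 (0), and library A lowest for Tgfb2 (0). In control male ASC2, library D was highest for Ltbp1 (638) and Tgfbr2 (426) and lowest for Ltbp2 (0), library B lowest for Grem1 (7.72) and library F lowest for Tgfb2 (2.12). In ovariectomized female ASC2, library P was lowest for Gdf10 (0) and Gdf11 (0), library N for Id2 (7.69) and library M for Ltbp2 (37.8). In the ASC1 groups, Fst was lowest in control female library A (0) and control male library G (4.44), Tgfb3 was highest in castrated male library N (73.2), and Bmp7 was highest in castrated male library K (1.13) and control female library H (1.56), each on 1 read.

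The castration effect in ASC2 minus that in ASC1 was past the threshold for 4 members (edgeR interaction term): 3.49 for Ltbp2, 1.56 for Id2, -1.40 for Tgfbr2 and -1.25 for Tgfbr3 on the log2 scale.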

How the results depend on the processing

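Of 84 member results past the threshold, 37 kept call and direction under every alternative run and 81 kept direction. Not every alternative could be run for every result. Contrasts with castrated male ASC1 had no fit without the libraries against their sex label. Those with ovariectomized female ASC1 had none without the libraries under 300000 counts. The replicate block was run only where the groups shared letters. DESeq2 kept 82 calls, DESeq2-type size factors in edgeR 83, no count filter 78, limma voom with libraries of a letter correlated 75, and a fit of the compared groups only 77. Among calls that could be refitted without the libraries against their sex label, 49 were kept, 18 ended and 1 reversed. Without the libraries under 300000 counts 41 were kept and 6 ended. Directions reversed in 3 results, and the cause was not tested: Id2 between populations of control females without the libraries against their sex label (-0.24), Ltbp2 after castration in ASC2 without libraries I and J (-0.30), and Bmp7 after ovariectomy in ASC1 without library L (-1.10). Leaving out 1 library at a time, the last ranged from -1.10 to 4.32. Counts of members past the threshold also moved. Without the libraries against their sex label they were 2 between populations of control females, 0 after ovariectomy in ASC2 and 3 between the sexes in ASC2. Without a count filter they were 4 after castration in ASC1 and 4 after ovariectomy in ASC2. On the compared groups only they were 6 after castration in ASC1, 3 after castration in ASC2 and 0 between the sexes in ASC1. The last was also 0 without libraries under 300000 counts or with ovariectomized female ASC1 left out of the fit, and without the shallow libraries castration in ASC1 gave 1. With single libraries left out, counts ranged from 7 to 9 (control male), 7 to 11 (control female), 7 to 12 (castrated male) and 10 to 19 (ovariectomized female) between populations, 2 to 4 and 3 to 6 after castration in ASC1 and ASC2, 10 to 21 and 2 to 5 after ovariectomy, 0 to 1 and 4 to 6 between the sexes, and 3 to 5 for the interaction. Plate row letters were not taken to pair libraries, since in no comparison were all same-letter correlations over 0.1. Between populations of control males they were 0.0449 to 0.358 (median 0.148, against -0.039 for other letters) and between the sexes in ASC1 -0.271 to 0.461 (median 0.307, against -0.051), with 5 of 7 pairs over 0.1 in each, and the other medians lay between -0.037 and 0.046. Only the 3 letters shared in ovariectomized females each correlated best with their own, at 0.0033 to 0.049. With the letter as a replicate block the counts between populations were 7, 6, 9 and 12 in control male, control female, castrated male and ovariectomized female libraries and those between the sexes 1 and 4, and 15 of 52 calls ended. In ASC1 between the sexes the block ended the call of Gdf10 (0.97, adjusted p = 0.176, edgeR) and gave 1 of Id3 (-0.82, adjusted p = 0.0156).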
